A study of Mus musculus with 2 samples.

Results

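The histone methylation and acetylation enzymes were examined in 2 pools of mouse morulae, the ball of compacted cells that precedes the blastocyst. The set was drawn by gene symbol with a rule that uses no measured values, though it was chosen with earlier results of these data known. It holds the genes named Kdm, Kmt, Setd, Nsd, Prmt, Hdac, Kat and Sirt with a number. Added to these were Ezh1, Ezh2, Eed, Suz12, Dot1l, Ep300 and Crebbp, and the Y-linked Kdm5d was left out. This gave 74 of the 12836 genes in the deposited table. They comprised 24 lysine methyltransferases and subunits, 7 arginine methyltransferases, 17 lysine demethylases, 10 lysine acetyltransferases, 9 zinc-dependent deacetylases and 7 sirtuins. Not every symbol in these families names an enzyme that acts on histones, and some members mainly modify other proteins.

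Embryos came from ICR mice and received an injection of double-stranded RNA that matched either Nat10 (dsNat10) or, as control, the jellyfish protein gene GFP (dsGFP), which mice lack. Such RNA lowers the matching mRNA by RNA interference, and Nat10 is the acetyltransferase that writes N4-acetylcytidine on RNA. Each group was 1 library from pooled embryos, and the stage was the only age given. With 1 library per group no difference below has a replicate check, no p-value was computed, and each value describes these libraries.

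Histone tails carry methyl and acetyl groups that help to set whether a gene is read. Methyltransferases and acetyltransferases add the groups, and demethylases and deacetylases take them off. Several of these enzymes come in closely related pairs, of which an early embryo often uses mainly a single member. Acetylation of histone H3 and H4 accompanies active genes. Methylation has different roles by position: on lysine 4 of H3 (H3K4) it marks promoters and enhancers, on lysine 36 (H3K36) the bodies of active genes, and on lysine 27 (H3K27), where the Polycomb repressive complex PRC2 writes it, silenced genes.

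The libraries held 28303119 estimated reads in dsNat10 and 29139232 in dsGFP. Nat10 had 37 reads in dsNat10 and 886 in dsGFP, so the targeted gene was lower in the library labelled as its knockdown. All 10 morula markers found in the table had reads in each library and passed the abundance filter given below. Of these, 6 had a ratio below 0, among them Cdx2, Tead4 and Krt8, which were lower in dsNat10 by the size rule below, and their part in the results below was not tested. Summed over the list, morula markers stood at 19029 TPM in dsNat10 and 17792 TPM in dsGFP, where the deposited TPM is a level per gene length that sums to 1000000 in each library. Most of that came from Dppa5a, and without it the other 9 markers summed to 3179 TPM in dsNat10 and 3555 TPM in dsGFP. The 2 cumulus cell markers in the table summed to 23.9 and 27.1 TPM, with Amh at 0 in dsNat10. The 5 blood or fibroblast markers summed to 71.9 and 60.1 TPM, with Col1a1 at 0 in dsNat10 and Hbb-bt at 0 in each library after rounding. Of the 3 that passed the filter, Vim (256 reads against 94) was higher by the size rule (33.3%, beside 30.5% of all genes). Pecam1 had 1879 against 1036, 1.83-fold higher, and Cd68 had 673 against 880, 1.29-fold lower. Transcripts inherited from the oocyte summed to 2567 TPM in dsNat10 and 1031 TPM in dsGFP over 8 genes, most of it from Khdc3 (2484 and 973 TPM). These genes went both ways. Of the 5 that passed the filter, 3 were higher: Khdc3 (71256 reads against 29411), Zp3 (642 against 106) and H1f8 (286 against 0). Padi6 (440 against 1295) was lower, so that 80% were called, beside 30.5% of all genes. Under the filter, Npm2 (0 against 89), Tle6 (0 against 33) and Gdf9 (1 against 54) had fewer reads in dsNat10. With all 8 counted and those at 0 in 1 library placed at a bound given below, the median log2 ratio was -0.38. Whether these transcripts move with the enzymes was not tested.

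Reads were scaled to CPM, reads per 1000000 reads. A gene passed the abundance filter with a mean of 5 CPM or more. It was called higher or lower in dsNat10 by a size rule: a log2 ratio of CPM plus 1 of at least 1 in size, and a 95% counting interval of the ratio (exact, Clopper-Pearson) that left out equality. Folds printed below are plain CPM ratios with that interval in parentheses, which covers the counting of reads only and not the variation between embryos or in amplification. In pooled embryos, fewer cells of a type and less RNA per cell cannot be told apart.

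As a set, the enzymes met the size rule about as often as all genes, though at a limit of 1.5-fold the shares were 61.7% of the enzymes and 48.9% of all genes. Of the 74, 60 passed the filter, and 10 of these were higher and 10 lower in dsNat10, which is 33.3%. Over all 8738 genes that passed, 30.5% met the size rule, 15.2% higher and 15.3% lower. The median log2 ratio of the 60 was 0.03, beside 0.01 for all genes. With all members counted and those at 0 in 1 library placed at their bound, the median was -0.03, beside -0.20 for all genes. The plot of reads in the libraries shows the enzymes spread over the same cloud as other genes.

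**Figure D1:**
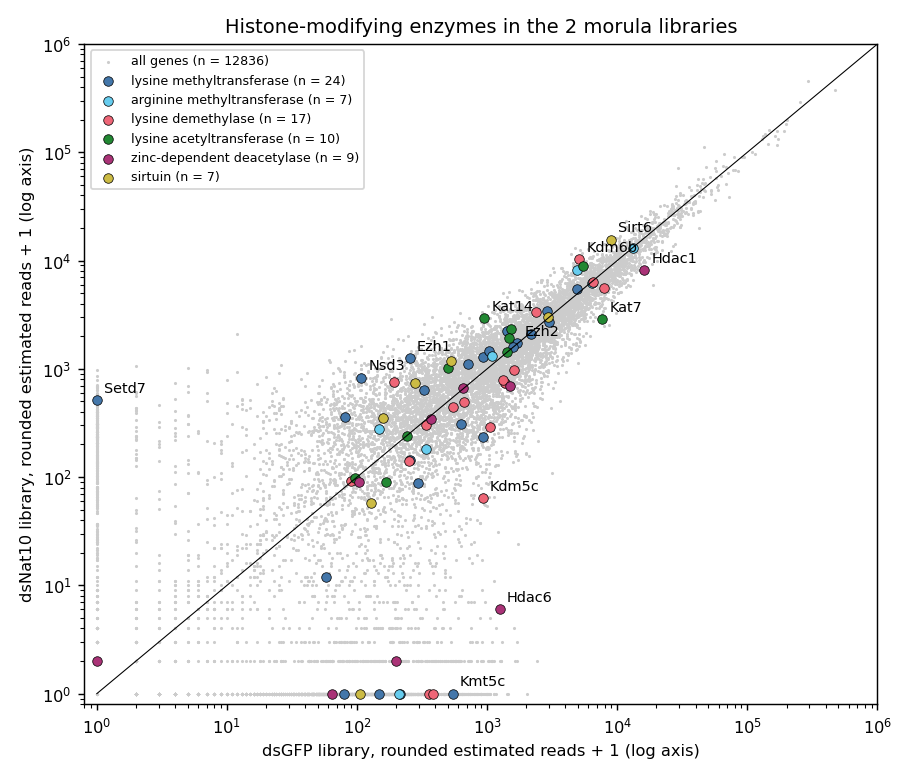
Rounded estimated reads plus 1 in the dsGFP library (horizontal, log axis) and in the dsNat10 library (vertical, log axis), with all 12836 genes in grey, the 74 enzymes coloured by class, and a line of equal reads. Hdac6 (5 reads against 1249) and Kmt5c (0 against 544) lie far under the line, and Setd7 (509 against 0) lies on the left edge.

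The calls depended on abundance in the enzymes as in other genes. Between 5 and 10 CPM, 7 of 12 enzymes met the size rule (58.3%), beside 63.1% of all genes. From 10 to 20 CPM the shares were 40.0% of 10 enzymes and 47.6% of all genes, and from 20 to 50 CPM they were 37.5% of 16 enzymes and 31.6% of all genes. Of the 13 enzymes from 50 to 200 CPM, 2 were called, Kat7 and Kat14 (15.4%, beside 12.3% of all genes). Of the 9 enzymes at 200 CPM or more, only Kdm6b was called (11.1%, beside 3.02% of all genes). In that band the median size of the log2 ratio, without its sign, was 0.73 for the enzymes and 0.27 for all genes. From 50 to 200 CPM it was 0.25 for the enzymes and 0.39 for all genes. So 17 of the 20 calls lay under 50 CPM, where large ratios were common across the table.

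**Figure D2:**
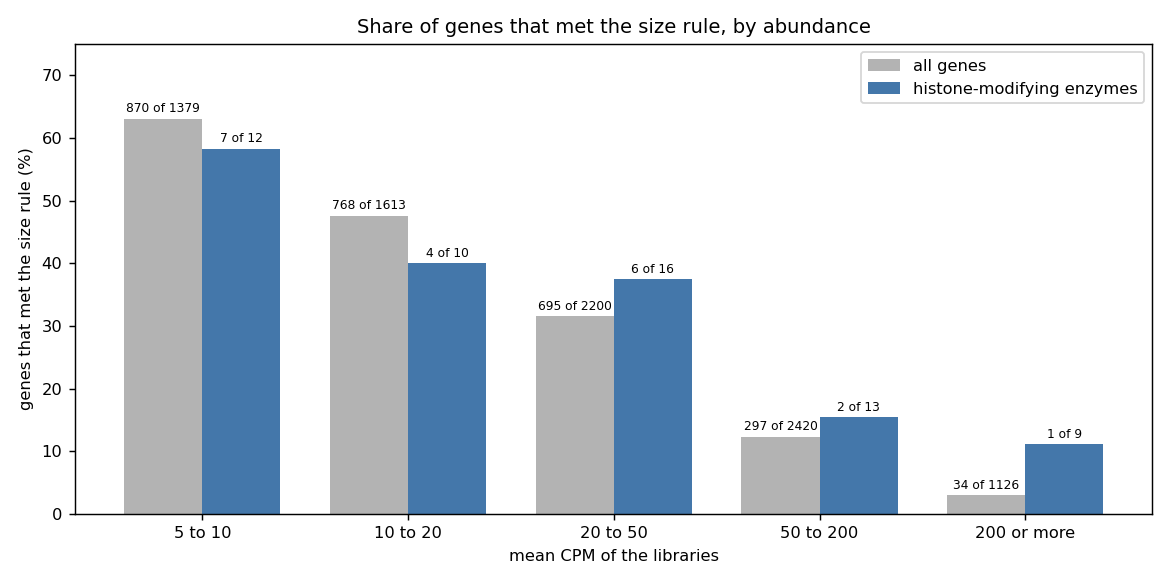
Percent of genes that met the size rule, by mean CPM of the libraries, for all genes (grey bars) and for the 60 enzymes that passed the filter (blue bars), with the number called and the number in the band over each bar. The share goes from 63.1% to 3.02% of all genes with rising abundance, and from 58.3% to 11.1% of the enzymes.

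Some scarce enzymes were not detected in a library. At 0 reads in dsNat10 stood 9 of the 74, namely Kmt2a, Kmt2b, Kmt5c, Setd5, Prmt2, Kdm4c, Kdm8, Hdac10 and Sirt3, while 20.7% of all genes were at 0 in that library. Among the 24 enzymes with 50 to under 300 reads in dsGFP, 6 had none in dsNat10, as did 37.2% of all genes in that range. In the next range, up to 1000 reads, the share at 0 was 3 of 18 enzymes and 10.2% of all genes. In the other direction, Setd7 was at 0 in dsGFP, and so was Hdac9, which had 1 read after rounding in dsNat10. In dsGFP 3.57% of all genes were at 0, among them 3.43% of those with 300 to under 1000 reads in dsNat10, the range of Setd7 (1 of 17 enzymes), and 8.98% of those with 50 to under 300 reads (0 of 14 enzymes). A fold for a gene at 0 is given as a bound against a floor of 3 reads in that library, and the bound does not cover such common zeros.

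The classes are described in turn, and the plot of ratios by class gives the same values as log2. Class medians rest on 5 to 20 genes that share these 2 libraries, and no class was compared with another by a test.

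**Figure D3:**
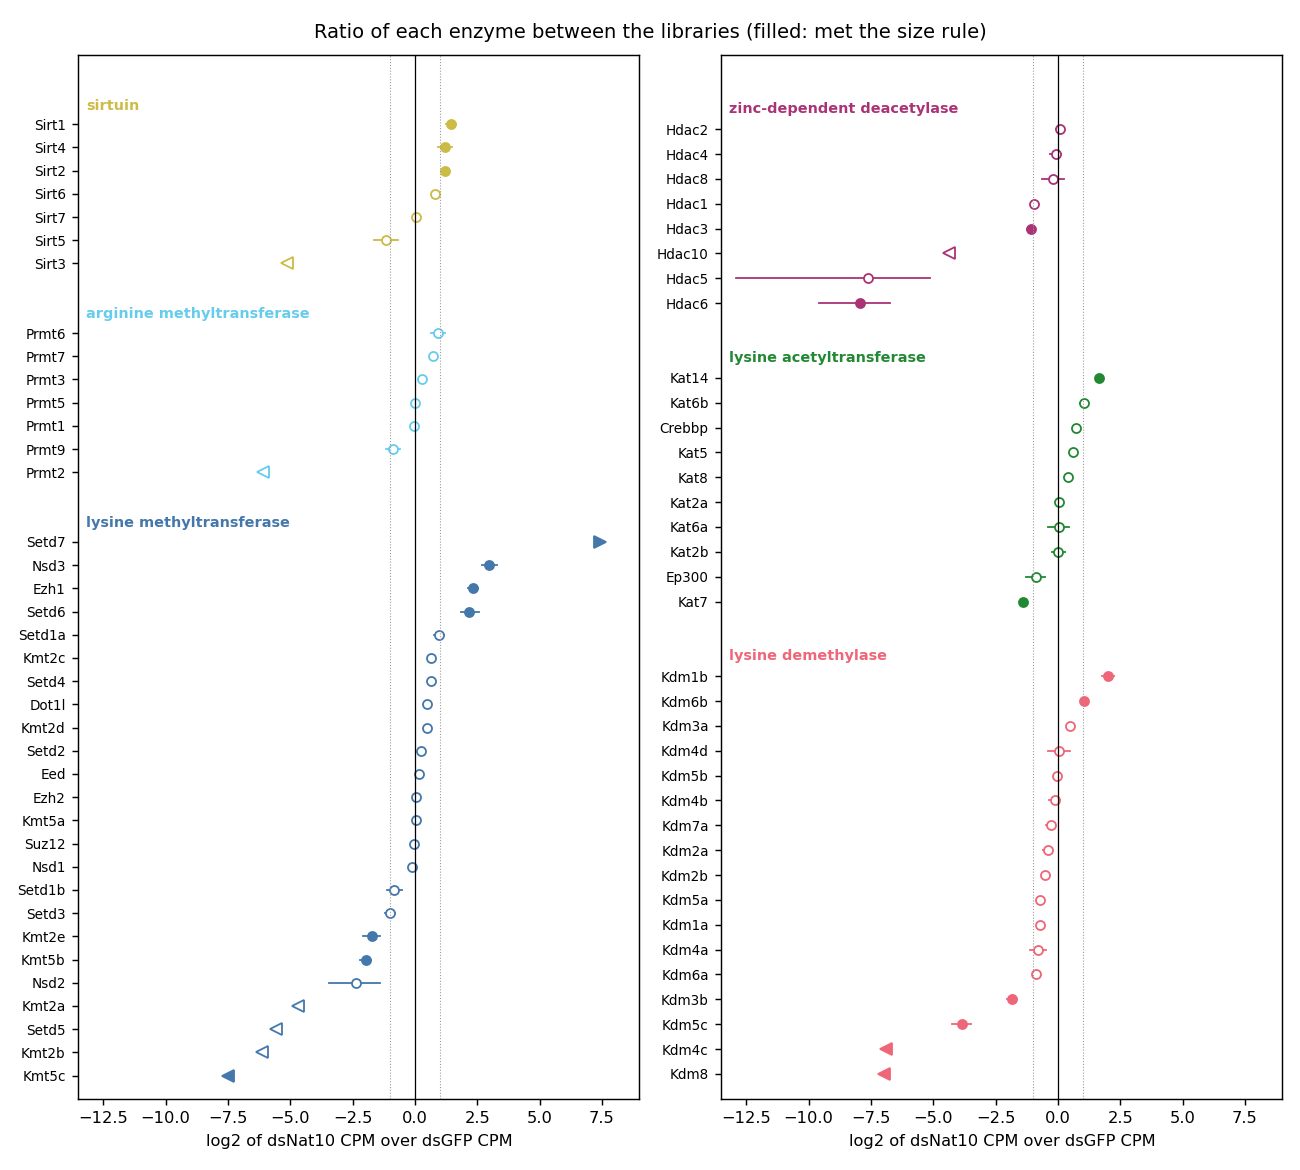
Log2 ratio of dsNat10 CPM over dsGFP CPM with no pseudocount for each of the 73 enzymes with a ratio, by class, with 95% counting intervals as bars, filled symbols for genes that met the size rule, and dotted lines at -1 and 1. Triangles are bounds for genes at 0 in a library. Most of the lysine demethylases lie to the left of 0, the sirtuins that passed the filter lie at or to the right of it, and Hdac6 and Setd7 stand at opposite ends.

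Lysine methyltransferases went both ways. Of 24 genes, 20 passed the filter, 4 were higher and 3 lower (35%, beside 30.5% of all genes), and the median log2 ratio was 0.22. Their summed level was 399 TPM in dsNat10 and 339 TPM in dsGFP. Eed, the PRC2 subunit that binds the methylated tail, was the most abundant of the class, with 5514 reads in dsNat10 and 4919 in dsGFP, 1.13-fold higher (1.09 to 1.18).

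In PRC2 the levels of Ezh1 and Ezh2, its alternative catalytic subunits, came closer together. Ezh1 (Entrez gene 14055, chr11:101191115-101226463, GRCm38) had 1250 reads in dsNat10 and 253 in dsGFP, 4.99-fold higher (4.36 to 5.74). Ezh2 had 1720 reads and 1701 reads, 1.02-fold higher (0.955 to 1.09), an interval that includes equality. Per length, Ezh1 was 16.1 TPM in dsNat10 and 3.09 TPM in dsGFP, while Ezh2 was 36.8 and 35.1 TPM. Ezh1 thus made up 30.4% of the summed level of the pair in dsNat10 and 8.08% in dsGFP. Suz12, the scaffold of the complex, had 2094 reads and 2161 reads, 1.02-fold lower (0.961 to 1.09). Of the histone-binding subunits that PRC2 shares with other complexes, Rbbp4 had 4343 reads against 7811, 1.78-fold lower (1.72 to 1.85), and Rbbp7 had 39917 against 38975, 1.03-fold higher (1.02 to 1.05).

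The promoters of Ezh1 and Ezh2 are shown because these subunits substitute for each other and differed in ratio, and that of Kat7 because this abundant acetyltransferase, described below, was lower. Each line gives the 250 bases before the annotated start on the strand of the gene, from RefSeq on GRCm38.p6, all on the minus strand: Ezh1 at chr11:101226464-101226713, Ezh2 at chr6:47595031-47595280 and Kat7 at chr11:95310247-95310496. Capitals mark CCAAT in either orientation (CCAAT or ATTGG).
Ezh1: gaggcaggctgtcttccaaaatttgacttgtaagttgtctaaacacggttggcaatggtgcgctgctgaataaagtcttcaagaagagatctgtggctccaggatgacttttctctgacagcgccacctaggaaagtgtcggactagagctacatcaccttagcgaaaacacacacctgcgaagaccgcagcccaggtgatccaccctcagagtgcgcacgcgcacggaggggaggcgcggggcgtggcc
Ezh2: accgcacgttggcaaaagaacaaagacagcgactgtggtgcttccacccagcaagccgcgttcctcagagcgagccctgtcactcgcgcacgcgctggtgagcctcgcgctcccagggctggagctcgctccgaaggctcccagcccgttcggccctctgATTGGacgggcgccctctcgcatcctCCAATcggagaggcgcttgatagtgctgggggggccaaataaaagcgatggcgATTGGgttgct
Kat7: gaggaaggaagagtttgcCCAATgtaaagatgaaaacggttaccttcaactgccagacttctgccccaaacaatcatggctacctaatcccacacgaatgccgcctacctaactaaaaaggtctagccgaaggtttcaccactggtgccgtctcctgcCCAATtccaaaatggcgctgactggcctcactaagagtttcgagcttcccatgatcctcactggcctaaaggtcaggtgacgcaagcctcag
The CCAAT letters occur 3 times before Ezh2, 0 times before Ezh1 and 2 times before Kat7. RefSeq windows were matched for 59 of the 74 genes, with 76 starts. CCAAT stood in 43.4% of these windows and in 33.8% of all 32851 windows of the same length, and TATAAA, read on both strands, in 3.95% and 12.4%. GGGCGG, the GC box, read on both strands, stood in 60.5% of the windows of the enzymes and in 32.7% of all windows. Of the called genes, CCAAT was present in 1 of 8 windows of higher genes and in 5 of 9 windows of lower genes. These matches describe letters only.

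H3K4 methyltransferases were low per gene length, and none of the 8 in the table reached 7 TPM. Setd7 (Entrez gene 73251, chr3:51515318-51560823), which also methylates many proteins other than histones, had 509 reads in dsNat10 and 0 in dsGFP, at least 171-fold higher. Kmt2e, a relative of this family not known to methylate histones, had 87 reads against 294, 3.34-fold lower (2.62 to 4.30). Kmt2c and Kmt2d, which methylate H3K4 at enhancers, had like ratios, short of the rule. Kmt2c had 2219 reads against 1429, 1.57-fold higher (1.47 to 1.68), and Kmt2d had 1289 against 934, 1.39-fold higher (1.28 to 1.52). The promoter enzymes Kmt2a (0 reads against 78) and Kmt2b (0 against 213) were under the abundance filter, and at least 25.7-fold and 70.3-fold lower. Setd1a, of the complex that writes most H3K4 methylation at promoters, had 631 reads against 325, 1.96-fold higher (1.71 to 2.25), with 52.3% of its exonic bases shared with other annotated genes. Its paralogue Setd1b had 142 against 256, 1.78-fold lower (1.45 to 2.21).

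Among H3K36 methyltransferases, Nsd3 stood apart. Nsd3 (Entrez gene 234135, chr8:25601601-25719667) had 827 reads in dsNat10 and 107 in dsGFP, 7.81-fold higher (6.38 to 9.64), and its level was 12.5 TPM against 1.52 TPM. Its paralogue Nsd1 had 2726 reads against 2976, 1.08-fold lower (1.03 to 1.14), and Nsd2, with 11 reads against 57, was under the filter. Setd2, which adds the third methyl group at this position, had 3382 against 2864, 1.19-fold higher (1.13 to 1.25). Dot1l, the H3K79 methyltransferase, had 1445 against 1038, 1.41-fold higher (1.30 to 1.52).

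The H4K20 enzymes differed in ratio. Kmt5a, which adds the first methyl group, had 1598 reads in dsNat10 and 1586 in dsGFP, 1.02-fold higher (0.949 to 1.09). The enzymes that add further groups were lower. Kmt5b (Entrez gene 225888, chr19:3767362-3818303) had 233 reads against 931, 3.95-fold lower (3.42 to 4.59), with fractional counts that make the value uncertain. Kmt5c (Entrez gene 232811, chr7:4740092-4747514) had 0 reads against 544, at least 179-fold lower. Per length, Kmt5b was 13.2 TPM and Kmt5c 12.5 TPM in dsGFP, and they stood at 3.87 and 0 TPM in dsNat10.

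Other SET-domain genes also differed in both directions. Setd6, known for methylating the NF-kappa-B subunit RelA, had 359 reads against 80, 4.53-fold higher (3.55 to 5.85). Setd3, a histidine methyltransferase of actin, had 306 against 626, 2.02-fold lower (1.76 to 2.33), and its log2 ratio of -0.95 was just short of the rule. Setd4 had 1101 against 710, 1.57-fold higher (1.42 to 1.72). Setd5 was under the filter with 0 against 146.

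No arginine methyltransferase met the size rule. Of 6 genes that passed, 0 were higher and 0 lower, beside 30.5% of all genes called, and the median log2 ratio was 0.13. That share depends on abundance: Prmt1, Prmt5 and Prmt7 had a mean of 200 CPM or more, where 3.02% of all genes were called. Prmt3 lay in the band where 31.6% were called, and Prmt6 and Prmt9 in that where 63.1% were. The class is led by Prmt1 and Prmt5, the main enzymes of asymmetric and symmetric dimethylation. Prmt1 had 6193 reads in dsNat10 and 6376 in dsGFP, 1.02-fold lower (0.984 to 1.06), and Prmt5 had 13037 and 13291, 1.01-fold lower (0.985 to 1.03). Each interval includes equality, and in TPM each gene was slightly higher in dsNat10 (284 against 278 for Prmt1, 274 against 266 for Prmt5). Prmt7, the monomethylating enzyme, was the abundant member that differed most, with 8091 reads against 4914, 1.66-fold higher (1.61 to 1.72). Prmt3, which methylates a protein of the small ribosomal subunit, had 1303 against 1079, 1.22-fold higher (1.12 to 1.32). The low members Prmt6 (276 against 147) and Prmt9 (180 against 336) lay in opposite directions, and Prmt2 (0 against 208) was under the filter.

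Lysine demethylases had mostly ratios below 0. Of 16 genes that passed, 13 had a log2 ratio below 0 (81.2%), beside 49.5% of all genes, and the median was -0.60. The rule called 4 of them lower and 2 higher (37.5%, beside 30.5% of all genes). The summed level differed little, at 310 TPM in dsNat10 and 318 TPM in dsGFP, since Kdm6b made up 26.6% of it in dsNat10 and 12.1% in dsGFP. The class median was -0.60 also among the 8 members with a mean of 20 CPM or more, and 0.23 among the 4 with 50 CPM or more, of which Kdm6b and Kdm3a had ratios above 0 and Kdm2b and Kdm5b below 0.

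The H3K4 demethylases of the Kdm5 family differed most in their scarcer members. Kdm5b, the most abundant, had 6291 reads in dsNat10 and 6519 in dsGFP, 1.03-fold lower (0.991 to 1.06). Kdm5c (Entrez gene 20591, chrX:152233198-152279102) had 63 against 925, 14.5-fold lower (11.3 to 19.1), and its level was 0.53 TPM against 6.58 TPM. Kdm5a, with fractional counts, had 971 against 1621, 1.65-fold lower (1.53 to 1.79). Kdm5b made up 91.1% of the summed level of the family in dsNat10 and 79.3% in dsGFP.

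The flavin-dependent H3K4 demethylases went opposite ways. Kdm1b (Entrez gene 218214, chr13:47043373-47085279), known for its role in oocytes, had 755 reads against 191, 3.99-fold higher (3.40 to 4.71), with fractional counts. Its paralogue Kdm1a had 790 against 1325, 1.66-fold lower (1.52 to 1.82). Kdm1a made up 63.3% of the level of the pair in dsNat10 and 91.1% in dsGFP.

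The H3K27 demethylases, which undo the mark of PRC2, were also opposed. Kdm6b (Entrez gene 216850, chr11:69398508-69420367) had 10318 reads in dsNat10 and 5115 in dsGFP, 2.04-fold higher (1.97 to 2.11), and 82.3 TPM against 38.4 TPM. It overlaps the antisense gene Kdm6bos over 4.11% of its exonic bases, and the kit does not mark strand. Kdm6a had 733 against 1364, 1.84-fold lower (1.68 to 2.02). The pair was 88.7 TPM in dsNat10 and 49.6 TPM in dsGFP in sum.

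Of the demethylases of H3K9 and H3K36, 3 were lower and 0 higher among 9 that passed (33.3%, beside 30.5% of all genes), and 2 of the 3 had a mean under 10 CPM, where 63.1% of all genes were called. Kdm3b (Entrez gene 277250, chr18:34777008-34839370), an H3K9 demethylase, had 288 reads against 1048, 3.60-fold lower (3.16 to 4.12), with 24.6% of its exonic bases shared with Gm26538 on the other strand. Its paralogue Kdm3a had 3326 against 2378, 1.41-fold higher (1.34 to 1.49), and made up 95.1% of the level of the pair in dsNat10 and 79.7% in dsGFP. Kdm4c (0 against 359) and Kdm8 (0 against 381), a JmjC protein also described as a hydroxylase, were at least 118-fold and 126-fold lower. Kdm2b, which binds unmethylated CpG islands and was the most abundant demethylase in dsGFP, had 5518 against 7901, 1.42-fold lower (1.37 to 1.47). The remaining Kdm2a, Kdm4a, Kdm4b and Kdm7a had 141 to 488 reads in dsNat10 and log2 ratios from -0.69 to -0.12, and Kdm4d (91 against 89) was under the filter.

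Lysine acetyltransferases had mostly ratios above 0, with Kat7 as the exception. Of 8 genes that passed, 7 had a log2 ratio above 0, beside 4417 of 8738 genes in all, and the median was 0.51. By the size rule 1 was higher and 1 lower, which is 25.0%, beside 30.5% of all genes. Kat7 (Entrez gene 217127, chr11:95271853-95310246), an acetyltransferase of histones H3 and H4 also known for its part in licensing of replication origins, had 2864 reads in dsNat10 and 7687 in dsGFP, 2.66-fold lower (2.54 to 2.77). It was the most abundant acetyltransferase in dsGFP, at 122 TPM or 41.5% of the class, and stood at 46.7 TPM or 14.5% in dsNat10. Kat14 (Entrez gene 228714, chr2:144369032-144407675), a subunit of the ATAC complex, had 2940 against 947, 3.14-fold higher (2.91 to 3.38), with 14.7% of its exonic bases shared with Pet117. These were the only called enzymes between 50 and 200 CPM.

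Within the same MYST family as Kat7, the other abundant members were higher, short of the rule. Kat5, the catalytic subunit of the NuA4 complex, had 2335 reads against 1534, 1.54-fold higher (1.44 to 1.64), with 12.1% of its exonic bases shared with Rnaseh2c. Kat8, which acetylates histone H4 in the MSL and NSL complexes, had 1942 against 1478, 1.33-fold higher (1.24 to 1.42). Kat6b had 1010 against 500, 2.04-fold higher (1.83 to 2.28), and its log2 ratio of 0.99 on the scale of CPM plus 1 left it just outside the rule. Its paralogue Kat6a (97 against 96) was under the filter.

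Crebbp, a broad coactivator and acetyltransferase, far exceeded its paralogue Ep300 in each library. Crebbp had 8966 reads in dsNat10 and 5455 in dsGFP, 1.66-fold higher (1.61 to 1.72), and Ep300 had 89 and 167, under the filter. Per length Crebbp made up 98.8% of the level of the pair in dsNat10 and 96.5% in dsGFP. Kat2a and Kat2b, the catalytic subunits of the SAGA and ATAC complexes, had intervals that include equality, with 1439 reads against 1419 and 241 against 241.

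Zinc-dependent deacetylases had lower summed levels in dsNat10, at 279 TPM against 526 TPM. Hdac1, the main nuclear deacetylase of the early embryo, made up 85.1% of this level in dsNat10 and 84.4% in dsGFP. Hdac1 (Entrez gene 433759, chr4:129516104-129542646) had 8193 reads in dsNat10 and 16131 in dsGFP, 1.95-fold lower (1.90 to 2.002), and its log2 ratio of -0.96 was just short of the rule. Its paralogue Hdac2 had 670 against 647, 1.05-fold higher (0.938 to 1.17), and stood at 19.4 and 17.5 TPM beside 237 and 444 TPM for Hdac1. Hdac3 (Entrez gene 15183, chr18:37936971-37955015), the enzyme of the NCoR complex, had 693 against 1491, 2.13-fold lower (1.94 to 2.33).

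Of 9 deacetylases, 5 passed the filter, 2 were lower and 0 higher, beside 15.3% of all genes lower and 15.2% higher, and the median log2 ratio was -0.96. Hdac6 (Entrez gene 15185, chrX:7930116-7948047), a cytoplasmic deacetylase of tubulin, had the lowest log2 ratio of the 60 enzymes on the scale of CPM plus 1, -5.24. Its place against the members at 0 in dsNat10 is not known on the plain scale, since those have only bounds. It had 5 reads in dsNat10 and 1249 in dsGFP, 247-fold lower (106 to 763), and 0.07 TPM against 16.0 TPM. The class IIa enzymes Hdac4, which had 341 against 366, and Hdac5, which had 1 against 197, are signal-regulated and shuttle between cytoplasm and nucleus. The ratio of Hdac5 was 195-fold lower with a counting interval of 34.6 to 7740.25, and its mean was under the filter. Hdac10 had 0 against 63 and Hdac9 had 1 against 0 after rounding, so that of classes IIa and IIb only Hdac4 had more than 5 reads in dsNat10.

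Hdac8 showed a difference between units. It had 89 reads in dsNat10 and 103 in dsGFP, 1.15-fold lower (0.854 to 1.54), but the deposited TPM were 0.31 and 1.98, which is -2.68 on the log2 scale against -0.20 for plain CPM. For Kdm2a the plain log2 ratio was -0.06 in TPM and -0.41 in CPM. Among the other enzymes with a ratio in each unit and more than 3 reads in dsNat10, the units differed by at most 0.23. Hdac5, with 1 read in dsNat10, was not part of this comparison. Hdac8 has fractional counts and was under the filter.

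All 5 sirtuins that passed the filter had ratios above 0. By the size rule 3 were higher and 0 lower, beside a background of 15.2% higher over all genes, and the median log2 ratio was 1.06. The 3 were scarce, with a mean of 8.86 CPM for Sirt4, 17.9 CPM for Sirt1 and 29.9 CPM for Sirt2. In the bands that hold these values, 63.1%, 47.6% and 31.6% of all genes were called in either direction. The more abundant Sirt6 and Sirt7 were not called. Sirt6, a nuclear deacetylase of histone H3, was the most abundant, with 15624 reads in dsNat10 and 8979 in dsGFP, 1.76-fold higher (1.71 to 1.80), and 534 TPM against 299 TPM. Sirt7, of the nucleolus, had 2980 against 2954, 1.02-fold higher (0.968 to 1.07). Sirt1 (Entrez gene 93759, chr10:63319005-63339035), which deacetylates p53 and histones, had 746 against 277, 2.72-fold higher (2.37 to 3.13). Sirt2, mainly cytoplasmic, had 1186 against 526, 2.28-fold higher (2.05 to 2.53).

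The mitochondrial sirtuins were scarce. Sirt4 had 352 reads against 156, 2.28-fold higher (1.88 to 2.77), with fractional counts. Sirt3, the main mitochondrial deacetylase, had 0 against 105, and Sirt5 had 57 against 128, both under the filter. With these 2 counted, the median of the class was 0.81. The summed level of the class was 696 TPM in dsNat10 and 425 TPM in dsGFP, of which Sirt6 made up 76.8% and 70.5%. In dsGFP the zinc-dependent deacetylases exceeded the sirtuins in summed level, and in dsNat10 the order was the other way around.

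**Figure D4:**
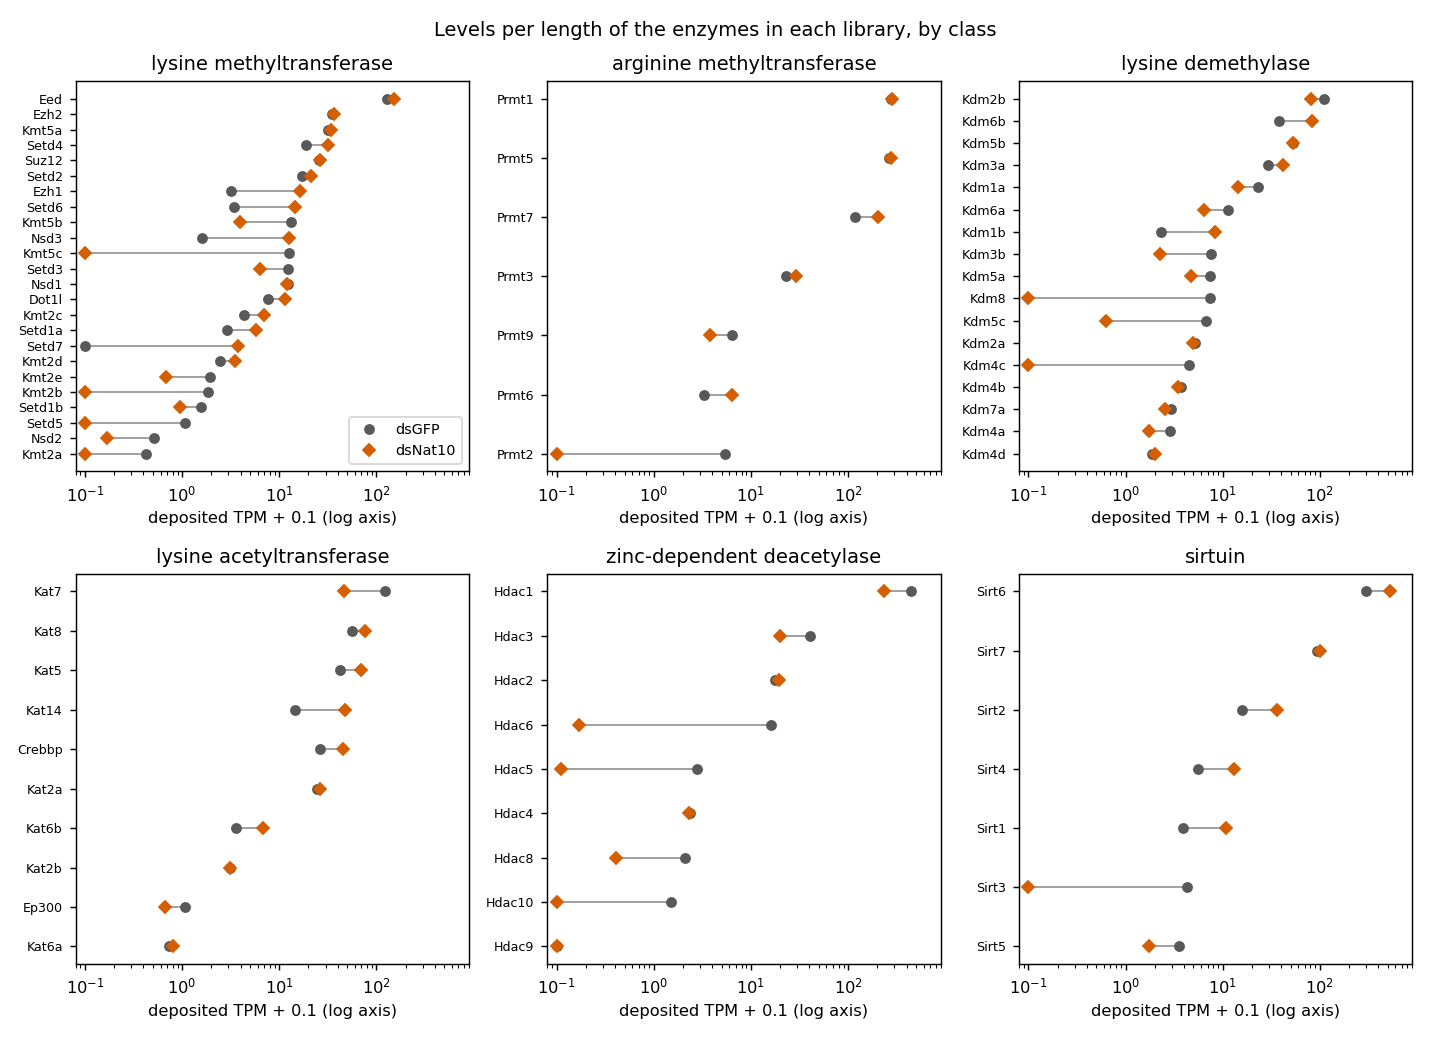
Deposited TPM plus 0.1 on a log axis for each enzyme in the dsGFP library (grey circles) and the dsNat10 library (orange diamonds), in a panel per class, ordered by the higher value. Hdac1 (444 to 237 TPM) and Kat7 (122 to 46.7 TPM) lie to the left in dsNat10, Sirt6 (299 to 534 TPM) and Kdm6b (38.4 to 82.3 TPM) to the right, and Prmt1, Prmt5 and Ezh2 nearly overlap.

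Closely related enzymes were also set side by side in pairs. Of 22 paralogue pairs listed from textbook families, 15 had both members over the filter, and in 9 of these the log2 ratios differed by 1 or more. On the log2 scale of CPM plus 1, the widest gaps were those of Kdm5b and Kdm5c (3.33) and Kdm4a and Kdm4c (3.06). Next came Kdm1a and Kdm1b (2.56) and Kmt5b and Kmt5c (2.45). This order holds only on that scale, since Kdm4c and Kmt5c were at 0 in dsNat10 and their values depend on the pseudocount. On the plain log2 scale, Kdm4c had a bound of -6.89 beside -0.80 for Kdm4a, and Kmt5c a bound of -7.49 beside -1.98 for Kmt5b. Kdm5c was at -3.86 beside -0.04 for Kdm5b. Kdm3a and Kdm3b, Ezh1 and Ezh2, Kdm6a and Kdm6b, Setd1a and Setd1b, and Hdac1 and Hdac2 followed, with gaps from 2.25 to 1.02. In Kdm5, Kdm3 and Ezh the more abundant member was within 1.5-fold and the scarcer member was called. Other pairs differed from this. In Hdac1 and Hdac2 it was the abundant member that differed, and in Kdm6 the abundant Kdm6b was called and Kdm6a was not. Kdm1b was called, but the more abundant Kdm1a was 1.66-fold lower, and both Kmt5b and Kmt5c were called. Kat2a and Kat2b (0.02), Kdm2a and Kdm2b (0.11) and Kmt2c and Kmt2d (0.17) had the closest ratios. These gaps were not tested or set against other gene pairs, and with 30.5% of all genes past the size rule, wide gaps between genes are common in this table.

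Partner proteins were read from lists of textbook complex subunits, chosen with earlier results of these data known. Of the COMPASS partners that H3K4 methyltransferases need, 11 of 12 passed the filter. Of these, 2 were higher and 1 lower (27.3%, beside 30.5% of all genes), and the median log2 ratio was -0.07. The shared cores Wdr5 (11082 reads against 11136) and Ash2l (17442 against 18438) were close to equal, Rbbp5 (1237 against 456) and Ncoa6 (1902 against 574) were higher, and Wdr82, of the Setd1 complexes, was lower with 41 reads against 687. Of 7 accessory proteins of PRC2, all passed, and Phf19 (385 against 0) was the only call (14.3%, beside 30.5% of all genes). Jarid2 had 19931 against 20894. Among 4 partners of Prmt5, Riok1 (261 against 967) was lower and the only call (25%), and the obligate cofactor Wdr77 had 8456 against 9985.

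Subunits of deacetylase complexes had 4 higher and 1 lower of 23 that passed (21.7%, beside 30.5% of all genes), and a median of 0.05. Higher were Sap30 (279 reads against 25) of the Sin3 complex, Arid4a (546 against 260) of the same complex, Rcor3 (732 against 256), a partner of Kdm1a, and Tbl1x (1602 against 670). Ncor1, the platform that activates Hdac3, was lower with 75 against 481 and fractional counts. Subunits of acetyltransferase complexes had 5 higher and 7 lower of 38 that passed (31.6%, beside 30.5% of all genes), and a median of 0.17. Partners of Kat7 were on each side, with the scaffold Brpf3 at 1878 against 205, and with Jade1 at 228 against 1089 and Ing5 at 1405 against 2874. Those of Kat8 were Msl2 (513 against 12), Msl1 (35 against 374) and Phf20 (788 against 2149). In NuA4, the complex of Kat5, Ep400 (3512 against 1282) and Mrgbp (303 against 0) were higher and Epc2 (1 against 596) was lower. Usp22, with fractional counts, of SAGA was higher (11682 against 5393), while Taf6l (356 against 1010) and Supt7l (447 against 1096, fractional) were lower.

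Other histone enzymes, outside the symbol families, were listed as well. Of 20 in the table, 16 passed, 12 of these had a ratio below 0 (75%, beside 49.5% of all genes), and 4 were lower and 1 higher (31.2%, beside 30.5% of all genes). The H3K9 methyltransferases Suv39h1 (427 reads against 1101), Setdb1 (111 against 961) and Setdb2 (63 against 334, fractional) and the hydroxylase Riox2 (1272 against 3125, fractional) were lower. Ehmt1 was higher with 1710 against 691, while its partner Ehmt2 had 836 against 1466, a log2 ratio of -0.78.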

How the data were processed

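Polyadenylated RNA was amplified by SMART-seq2, per the labels' protocols, and read from paired ends on the DNBSEQ platform. Trimming with Trim Galore, mapping to GRCm38 with HISAT and counting with HTSeq are named in the submitters' processing notes, without versions. The authors deposited estimated counts that are not normalized, of which 23.2% of genes are fractional in at least 1 library, and the program that made the fractions is not given. The authors also deposited TPM and FPKM values, which are scaled by gene length. The labels do not say how embryos were pooled beyond the design text's 50 injected morulae.

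Estimated counts were rounded and scaled by TMM (edgeR 4.0.16, R 4.3.3), which moved log2 ratios by -0.03 against plain totals. The pseudocount of 1 understates differences of low genes. Floors of 3 reads were 0.105 CPM in dsNat10 and 0.104 CPM in dsGFP, and PCR copies were not told apart from separate molecules, so intervals cover counting error only. The rule was tested on counts simulated with counting error only. That simulation leaves out variation between embryos and in amplification, so it does not show how the rule performs on these libraries. All 74 genes matched RefSeq GRCm38.p6 by Entrez identifier, and exon overlap came from GENCODE M21 (GRCm38). Of the 74, 9 have fractional counts: Kdm1b, Kdm4b, Kdm5a, Kdm7a, Kmt5b, Sirt4, Sirt5, Hdac8 and Hdac9. Reads were given for genes that met the size rule, were at 0 in 1 library, led a class, or formed a pair whose ratios differed by 1 or more, and for further members chosen after their values were seen. The members and lists were chosen with earlier results of these data known. Alternatives were plain totals, DESeq2 1.42.0 size factors, other filters, pseudocounts and size limits, TPM, FPKM, and leaving out fractional counts.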

Additional observations from a re-analysis of the deposited data

How the results depend on the processing

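No member that met the size rule changed direction under any alternative. All 20 calls were kept with plain totals and with DESeq2 size factors, and 17 to 20 were kept with pseudocounts of 0.5 or 5, in TPM, in FPKM and without fractional genes. Hdac3, Kmt2e and Sirt4 lost their call with a pseudocount of 5, Hdac3 and Kmt2e in TPM, and Kmt2e in FPKM, while Kat6b gained a call with plain totals or a pseudocount of 0.5. The counts of 10 higher and 10 lower enzymes became 4 and 5 from a mean of 20 CPM, 2 and 1 from 50 CPM, 19 and 18 at a limit of 1.5-fold, and 3 and 5 at 4-fold, and without a filter 18 were lower. The share of enzymes called was then 23.7% beside 17.9% of all genes at 20 CPM, 13.6% beside 9.33% at 50 CPM, 61.7% beside 48.9% at 1.5-fold, 13.3% beside 12.8% at 4-fold, and 37.8% beside 38.4% without a filter. Class medians also moved. At 50 CPM or more they were 0.03 for lysine methyltransferases, -0.01 for arginine methyltransferases, 0.23 for demethylases, 0.61 for acetyltransferases and 0.42 for sirtuins. At 20 CPM or more they were 0.61 for acetyltransferases, -1.01 for zinc-dependent deacetylases and 0.81 for sirtuins. Without a filter they were 0.03, -0.01, 0.22 and 0.81 for lysine methyltransferases, arginine methyltransferases, acetyltransferases and sirtuins. With a pseudocount of 5 the demethylase median was -0.47 and that of sirtuins 0.80. The demethylase median was -0.47 in FPKM, and that of zinc-dependent deacetylases -0.90 in TPM. The filters change which genes enter, and for the other settings the cause was not tested. No paired analysis was possible because each group holds 1 library. No library could be left out for the same reason.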

Other observations

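The levels of enzymes with opposed activity can be set side by side by position. The H3K4 methyltransferases summed to 21.1 TPM in dsNat10 and 14.8 TPM in dsGFP, or to 17.4 and 14.8 TPM without Setd7. Each of these sums includes Kmt2e (0.58 and 1.86 TPM), which is not known to methylate histones. The JmjC demethylases of that position summed to 58.3 and 67.3 TPM, and the flavin-dependent Kdm1a and Kdm1b to 22.7 and 25.1 TPM. For H3K27, PRC2 summed to 231 and 193 TPM and the demethylases to 88.7 and 49.6 TPM, so each sum was higher in dsNat10. Most of the PRC2 sum was Eed (152 and 129 TPM), which is not a catalytic subunit. Of the demethylases, Kdm6b was higher (82.35 and 38.36 TPM) and Kdm6a lower (6.39 and 11.29 TPM) in dsNat10. The enzymes of H4K20 summed to 37.7 and 57.1 TPM, of which Kmt5a was 33.8 and 31.4 TPM. Sums of RNA levels give no measure of enzyme activity.

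On the X chromosome, all 3 members that passed the filter had ratios below 0: Hdac6 at -5.24, Kdm5c at -3.37 and Kdm6a at -0.86 on the log2 scale of CPM plus 1. This grouping was chosen after the values were seen. Over the 288 X-linked genes that passed, 46.2% had a ratio below 0 and the median was 0.08, while over 8425 autosomal genes 49.5% did and the median was 0.01. The median over X-linked genes was thus above 0, unlike the ratios of these members.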
